A study of Schizosaccharomyces pombe with 4 samples.

Results

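ade6 is a fission yeast gene that is widely used as a marker, and 6 tiles of a genome tiling array read it in this study of H3K9me3, the histone mark of heterochromatin. The 6 tiles were chosen by the position in their name on the chromosome III contig, out of 41551 tiles on the array, and are numbered 1 to 6 from the left. They were set against 37 tiles to the left and 36 tiles to the right. The last of the left tiles, which adjoins tile 1, is called the adjoining left tile, and the tile between tile 6 and the right flank is called the next right tile and belongs to neither. The locus was picked because earlier results on the same arrays had shown its ratio to differ between them, so its ratios and its channel signals are given as a description and carry no test.

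Each of 4 groups of Schizosaccharomyces pombe cells had 1 array. All cells carried tetR-clr4, in which the Tet repressor is fused to Clr4, the H3K9 methyltransferase of this yeast. Wild-type (wt) cells and clr3-CDx2 cells were each taken at 2 times. What the clr3-CDx2 allele is was not given in the sources used here, and clr3 itself encodes a histone deacetylase. In the ON groups, wt ON and clr3-CDx2 ON, cells grew at 32 °C for 20 generations without thiamine, then spent 5 generations with 5-fluoroorotic acid at 850 µg/ml, and were fixed with 3% paraformaldehyde. In the OFF groups, wt OFF and clr3-CDx2 OFF, the rest of the same cultures grew for 14 more generations with thiamine at 5 µg/ml and tetracycline at 2.5 µg/ml before fixing. Time of harvest and the end of 5-fluoroorotic acid growth cannot be told apart from the switch. DNA precipitated with 2 µg of an H3K9me3 antibody (ChIP, Cy5) and whole-cell extract DNA (input, Cy3) were hybridised together to 60-mers spaced 300 bp apart. There was 1 array a group, so the spread between replicates is unknown, and only the spread over tiles and the scanner software's error for a spot are given.

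Ade6 is phosphoribosylaminoimidazole carboxylase, an enzyme of purine synthesis. Cells that lack its activity build up a red pigment when adenine is scarce, so the colour of a colony tells whether ade6 is expressed, and a copy placed in heterochromatin is silenced and gives red or variegated colonies. Clr4 writes H3K9 methylation and also binds it, which lets the mark be copied onto new histones after replication. The Tet repressor holds a fusion protein at tet operator sites until tetracycline releases it.

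In the reference genome (ASM294v3), ade6 (SPCC1322.13) lies on the plus strand at chrIII:1316281-1318035, spans 1755 bp and has 1 coding exon of 1659 bp for 552 residues. A non-coding RNA gene, SPNCRNA.7311, is annotated antisense to most of it. Of its 1725 stretches of 31 bases, 0 occur anywhere else in that genome on either strand. The array names no genome build, so its positions are those of the array and are not those of the reference. Matching input signal to GC content along the right arm of chromosome III placed tile 1 at chrIII:1316480-1316539 and tile 6 at chrIII:1317980-1318039 of ASM294v3. Tiles 1 to 5 then lay wholly inside ade6, tile 6 across its 3′ end, and the adjoining left tile at chrIII:1316180-1316239, just ahead of its 5′ end. How precise this placement is within 1 kb is not known, so which tiles lie inside or just outside the gene is approximate. The letters of the tiles are not used here. The first and last 150 bases of the coding sequence are shown because, by this placement, the enriched tiles begin and end near the ends of the gene. They lie at chrIII:1316337-1316486 and chrIII:1317846-1317995 of ASM294v3 (RefSeq), plus strand, and capitals mark the start and the stop codon.
ade6 coding start: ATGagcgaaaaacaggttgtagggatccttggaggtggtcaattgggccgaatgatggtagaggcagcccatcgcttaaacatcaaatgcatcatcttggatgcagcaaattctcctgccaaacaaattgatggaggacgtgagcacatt
ade6 coding end: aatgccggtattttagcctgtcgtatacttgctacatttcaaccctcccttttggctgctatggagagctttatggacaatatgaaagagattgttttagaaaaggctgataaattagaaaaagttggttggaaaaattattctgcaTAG
A tile reads every stretch of DNA that carries its sequence, wherever it lies. The labels do not give where these strains carry ade6 or in how many copies, so signal from the gene's own locus and from any other copy cannot be told apart.

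Levels are log2 ratios of ChIP to input with the median tile of each array at 0. The median tile stood at 417 to 490 times background for input DNA and at 137 to 166 times for ChIP DNA. No tile was saturated. All 6 ade6 tiles were well above background in both channels on each array, and the lowest single reading was 62.3 times background. The software marked 1 ade6 spot as non-uniform, tile 3 of clr3-CDx2 OFF, and 5 tiles were used there. The clr3 gene read 0.56 and 0.66 on the wt ON and OFF arrays, against -1.39 and -1.32 on those of clr3-CDx2.

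ade6 had a high H3K9me3 level on 3 of the 4 arrays. In wt OFF it did not stand out, and ranked 1058 from the highest of 4876 genes. The median over its tiles was 3.65 in wt ON (12.5-fold, SD over 6 tiles 0.32), 0.61 in wt OFF (1.52-fold, SD 0.19), 2.37 in clr3-CDx2 ON (5.15-fold, SD 0.27) and 4.05 in clr3-CDx2 OFF (16.5-fold, SD 0.31, 5 tiles). From highest to lowest the order was clr3-CDx2 OFF, wt ON, clr3-CDx2 ON, wt OFF. The top 2 exchanged places with log2 ratios scaled to the same pericentromeric median, at 3.88 for wt ON and 3.52 for clr3-CDx2 OFF. They stood at 3.98 and 3.995 with normexp background correction. For the scaling, the log2 ratios of each array were multiplied by a factor, which is not a shift of signal. The factors were 1.06 for wt ON, 0.84 for wt OFF, 1.38 for clr3-CDx2 ON and 0.87 for clr3-CDx2 OFF. The pericentromeric scaling used medians with marked spots kept, at 3.56 for wt ON, 4.50 for wt OFF, 2.76 for clr3-CDx2 ON and 4.36 for clr3-CDx2 OFF. Without marked spots these medians were 1.53, 2.50, 2.11 and 2.35, with clr3-CDx2 ON above wt ON. All scaled values thus depend on this choice. The tiles ranged from 3.69 to 4.50 in clr3-CDx2 OFF and from 3.13 to 3.96 in wt ON, so these 2 overlapped. They ranged from 1.995 to 2.71 in clr3-CDx2 ON and from 0.25 to 0.80 in wt OFF, and neither of these overlapped another array. The scanner software's error for a single ade6 spot was 0.37 to 0.44 in wt ON, 0.21 to 0.22 in wt OFF, 0.29 to 0.35 for the ON array of clr3-CDx2 and 0.42 to 0.49 for its OFF array, on the log2 scale. A level of 2 or more was reached by 6 of 6 tiles in wt ON, where 1.64% of all tiles did, by 0 of 6 in wt OFF (1.9% of all), by 5 of 6 in clr3-CDx2 ON (2.01%) and by 5 of 5 in clr3-CDx2 OFF (2.66%). At 1 or more the counts were 6 of 6 (12.9% of all tiles), 0 of 6 (13.4%), 6 of 6 (14.9%) and 5 of 5 (16.7%).

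Tile by tile the same order held. Tile 1 read 3.13 for wt ON, 0.25 for wt OFF, 1.995 for clr3-CDx2 ON and 3.69 for clr3-CDx2 OFF. Tile 2 read 3.56, 0.63, 2.25 and 4.001 on the same arrays. Tile 3 read 3.95, 0.80 and 2.57, and 4.28 from the marked spot in clr3-CDx2 OFF. These 3 tiles thus stood lowest in wt OFF and highest in clr3-CDx2 OFF. Tile 4 read 3.74 for wt ON, 0.69 for wt OFF, 2.48 for clr3-CDx2 ON and 4.32 for clr3-CDx2 OFF. Tile 5 read 3.45, 0.46, 2.17 and 4.05. Tile 6 read 3.96, 0.58, 2.71 and 4.50. All 6 tiles had the order of the arrays with the marked spot kept, which 3.38% of all tiles had. Among the tiles themselves, tile 1 was the lowest of the 6 on each array, at -0.52 to -0.36 from the array's ade6 median. Tile 6 was the highest on the 3 enriched arrays and ranked 3 from the lowest in wt OFF.

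**Figure D1:**
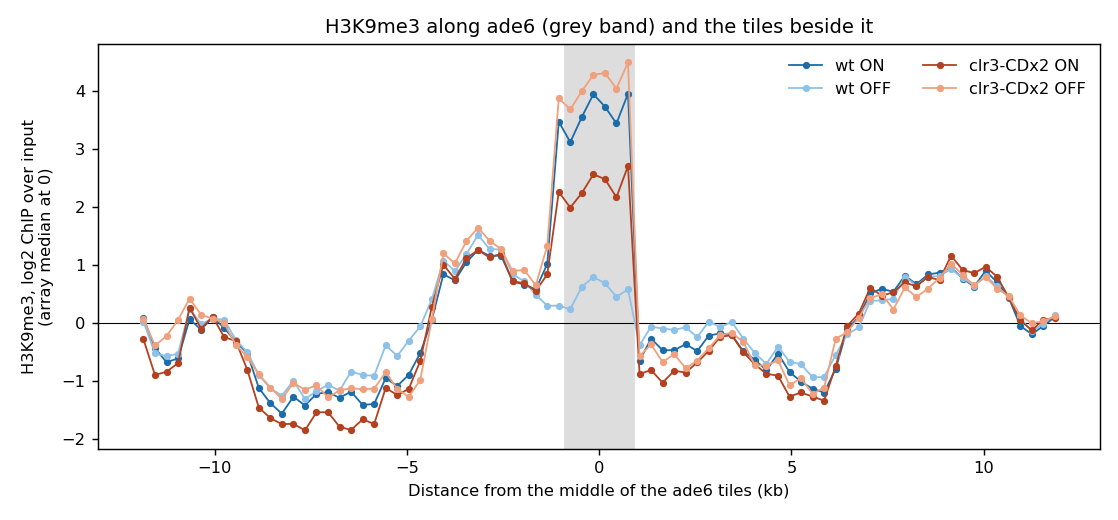
H3K9me3 (log2 ChIP over input, array median at 0) for each tile against its distance from the middle of the ade6 tiles in kb, with 1 line per array and the 6 ade6 tiles in the grey band (marked spots kept). The ade6 tiles of wt ON, clr3-CDx2 ON and clr3-CDx2 OFF stand at 1.99 or above, those of wt OFF at or below 0.80, and the lines are also apart at the adjoining left tile, just left of the band.

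The enrichment ended abruptly at the 3′ side. In wt ON the level went from 3.96 at tile 6 to -0.65 at the next right tile, a step of -4.60 over 300 bp. Of 41252 pairs of adjacent tiles on that array 8 had a step as large in either direction, and the median step was 0.17. The same step was -3.58 in clr3-CDx2 ON (14 pairs as large), -5.06 in clr3-CDx2 OFF (7 pairs) and -0.96 in wt OFF (531 pairs). For these arrays chromatin had been sheared to about 1000 bp, which is longer than the distance between the tiles of each pair. Within ade6 the largest step between adjacent tiles was 0.39 to 0.54 on the 4 arrays.

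The 5′ side was different, since the tile just outside the chosen positions read like the members. The adjoining left tile read 3.48 for wt ON, 0.31 for wt OFF, 2.26 for clr3-CDx2 ON and 3.88 for clr3-CDx2 OFF. It belongs to the left flank by its position, and it lay inside the range of the 6 ade6 tiles on each array. The next tile out, placed inside bub1, read 1.03 for wt ON, 0.31 for wt OFF, 0.84 for clr3-CDx2 ON and 1.34 for clr3-CDx2 OFF. It kept the order of the arrays at a fraction of the size, and the tile beyond it read 0.59, 0.49, 0.56 and 0.66. Unbroken runs at 2 or more covered 7 tiles (2.1 kb), from the adjoining left tile to tile 6, in wt ON and in clr3-CDx2 OFF, and 5 tiles (1.5 kb) in clr3-CDx2 ON. At 1 or more the run was 8 tiles in wt ON and clr3-CDx2 OFF and 7 in clr3-CDx2 ON, and no ade6 tile reached 1 in wt OFF.

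The flanking tiles had medians below 0 on all 4 arrays. The left flank without the adjoining left tile had medians of -0.46 for wt ON, -0.29 for wt OFF, -0.66 for clr3-CDx2 ON and -0.29 for clr3-CDx2 OFF over 36 tiles, and 0 of these tiles reached 2 on any array. The right flank had medians of -0.13, -0.03, -0.08 and -0.07. Nearest on the left is bub1, a spindle checkpoint kinase gene, whose median was 0.80 for wt ON, 0.88 for wt OFF, 0.80 for clr3-CDx2 ON and 1.12 for clr3-CDx2 OFF. Its level was thus not lower after the switch in wt, and the 0.61 of ade6 in wt OFF lay below it. Nearest on the right is vtc4, a gene of polyphosphate synthesis, which read -0.31, -0.06, -0.74 and -0.48. The ribosomal protein genes rpl2302 and rpl3402 read from -1.13 to -0.37 and from -0.88 to -0.55.

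After the switch in wt cells, ade6 was lower. The median difference, wt OFF minus wt ON, was -3.02 (8.09-fold lower), with tiles from -3.38 to -2.88 and an SD of 0.18 over 6 tiles. All 6 tiles were lower by at least 1, against 0.753% of all tiles. The 72 flanking tiles other than the adjoining left tile had a median difference of 0.12, a range from -0.72 to 0.59 and an SD of 0.20, and their lowest was the tile beside the adjoining left tile. That one itself differed by -3.17. Pericentromeric tiles were higher in wt OFF than in wt ON, by a median of 0.73 over 265 tiles. Of 4876 protein-coding genes with at least 2 tiles, ade6 ranked 8 from the lowest in this difference when taken over the 5 tiles placed wholly inside it.

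In clr3-CDx2 cells the same switch went with a higher level. The median difference, clr3-CDx2 OFF minus clr3-CDx2 ON, was 1.78 (3.45-fold higher), with tiles from 1.69 to 1.87 and an SD of 0.07 over 5 tiles. All 5 tiles were higher by at least 1, against 3.07% of all tiles. The flanking tiles other than the adjoining left tile had a median of 0.17 and ranged from -0.32 to 0.75. Pericentromeric tiles were also higher in clr3-CDx2 OFF, by a median of 1.43 over 270 tiles. With the log2 ratios multiplied to the same pericentromeric median the ade6 difference was 0.39. Whether precipitation or labelling differed between these arrays was not tested. On the ChIP signal alone, over the same 5 tiles, it was 0.90.

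Between genotypes, ade6 was lower in clr3-CDx2 than in wt before the switch and higher after it. The median difference, clr3-CDx2 ON minus wt ON, was -1.26 (2.40-fold lower), from -1.38 to -1.13 over 6 tiles, and all 6 were lower by at least 1, against 0.926% of all tiles. It was -0.63 with log2 ratios multiplied to the same pericentromeric median, and the pericentromeric tiles themselves differed by -0.79. After the switch, clr3-CDx2 OFF minus wt OFF was 3.59, from 3.37 to 3.91 over 5 tiles, all of them higher by at least 1, against 1.31% of all tiles. Here the pericentromeric tiles differed by -0.14. The flanks without the adjoining left tile had medians of -0.09 and -0.02 in the 2 comparisons. The difference between the 2 switch differences, clr3-CDx2 less wt, was 4.86, and 5 of 5 tiles reached 1, against 1.83% of all tiles. The 4 comparisons share arrays, so they are not separate observations of ade6.

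The ratio at ade6 differed between arrays in both of its channels. Input signal was low where ChIP signal was high. At tile 6 the processed ChIP signal was 8486 for wt ON, 2415 for wt OFF, 5404 for clr3-CDx2 ON and 9243 for clr3-CDx2 OFF. At the same tile the processed input signal was 465 for wt ON, 1429 for wt OFF, 672 for clr3-CDx2 ON and 361 for clr3-CDx2 OFF. The input order is the ChIP order turned over. At the next right tile, 300 bp further on, the input signal was 1345, 1410, 1482 and 1375 and the ChIP signal 1009, 1222, 995 and 1055 on the same arrays, so neither channel followed ade6 there.

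**Figure D2:**
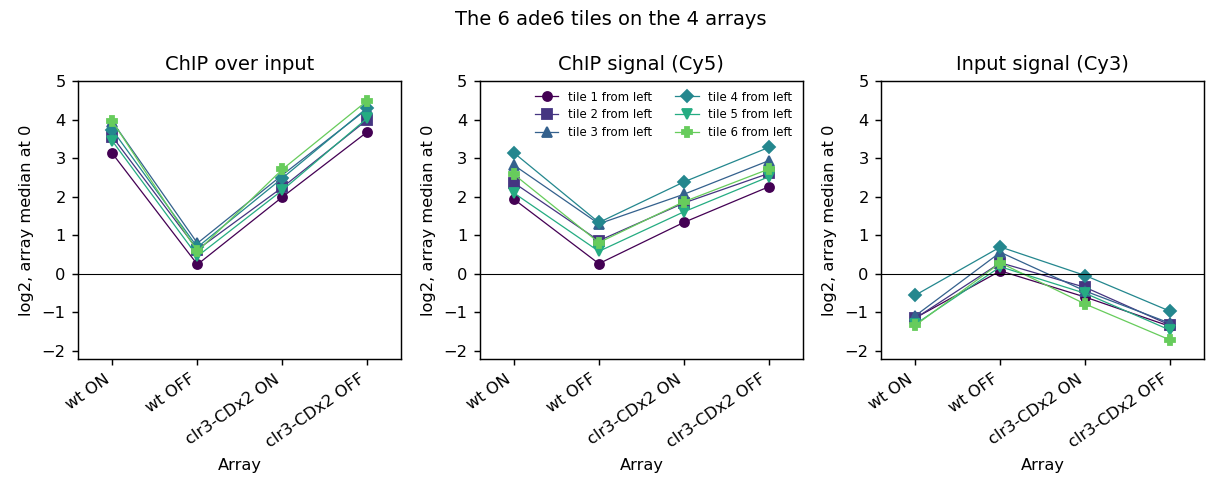
The 6 ade6 tiles, numbered from the left, on the 4 arrays, as the log2 ratio of ChIP to input (left), the ChIP signal (middle) and the input signal (right), each in log2 with the array's median tile at 0; marked spots are kept, and a line joins the values of 1 tile. Ratio and ChIP signal were lowest in wt OFF and highest in clr3-CDx2 OFF for each tile, and input signal was highest in wt OFF and lowest in clr3-CDx2 OFF.

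With each channel set to its median tile, the ade6 input signal differed by 1.46 between wt OFF and wt ON (2.76-fold higher, 1.22 to 1.65 over 6 tiles) and the ChIP signal by -1.60 (3.02-fold lower, -1.81 to -1.50). The input channel thus held 48.6% of the ratio difference. All 6 tiles had an input signal higher by at least 1, against 0.112% of all tiles. In clr3-CDx2, OFF minus ON, the input signal differed by -0.93 (-0.98 to -0.76; 0 of 6 tiles lower by 1 or more, against 0.49% of all) and the ChIP signal by 0.88 (0.77 to 0.92, 6 tiles with the marked spot kept), and the input share was 52.6%. For clr3-CDx2 ON minus wt ON the input and ChIP signals differed by 0.59 and -0.66, and 0 of 6 tiles had an input signal higher by 1 or more (0.0316% of all). For clr3-CDx2 OFF minus wt OFF they differed by -1.66 and 1.92, and the input signal was lower by 1 or more at 6 of 6 tiles (0.367% of all). ChIP signals in the order of the ratios were found at 6 of 6 tiles (4.19% of all) and input signals in the reverse order at 6 of 6 (2.26%). Input and ChIP signal differed in opposite directions at 6 of 6 ade6 tiles in each of the 4 comparisons. Of all tiles, 48.9% did so for the switch in wt, 49.1% for the switch in clr3-CDx2, 44.6% between genotypes at ON and 51.1% between genotypes at OFF, so the sign by itself is common.

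In the flanks the input signal scarcely differed. Over the 72 flanking tiles other than the adjoining left tile it differed by -0.12 to 0.25 in wt and by -0.24 to 0.23 in clr3-CDx2, with medians of 0.01 in both. The adjoining left tile had 1.31 and -0.64, and the tile beyond it 0.25 and -0.08. In clr3-CDx2 the ChIP signal also differed at some left-flank tiles, by up to 0.83 without the adjoining left tile, where the input signal did not follow it. Among 4876 genes, ade6 ranked 4 from the highest in the input difference between wt OFF and wt ON, and 1 from the highest in that between clr3-CDx2 ON and wt ON. It ranked 10 from the lowest for clr3-CDx2 OFF minus ON and 7 from the lowest for clr3-CDx2 OFF minus wt OFF. In the ChIP difference it ranked 14 from the lowest for the switch in wt and 83 from the highest for that in clr3-CDx2. Between genotypes its ChIP rank was 98 from the lowest at ON and 11 from the highest at OFF. The input DNA is whole-cell extract DNA, and whether it differed through copy number, recovery, amplification or hybridisation was not tested.

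**Figure D3:**
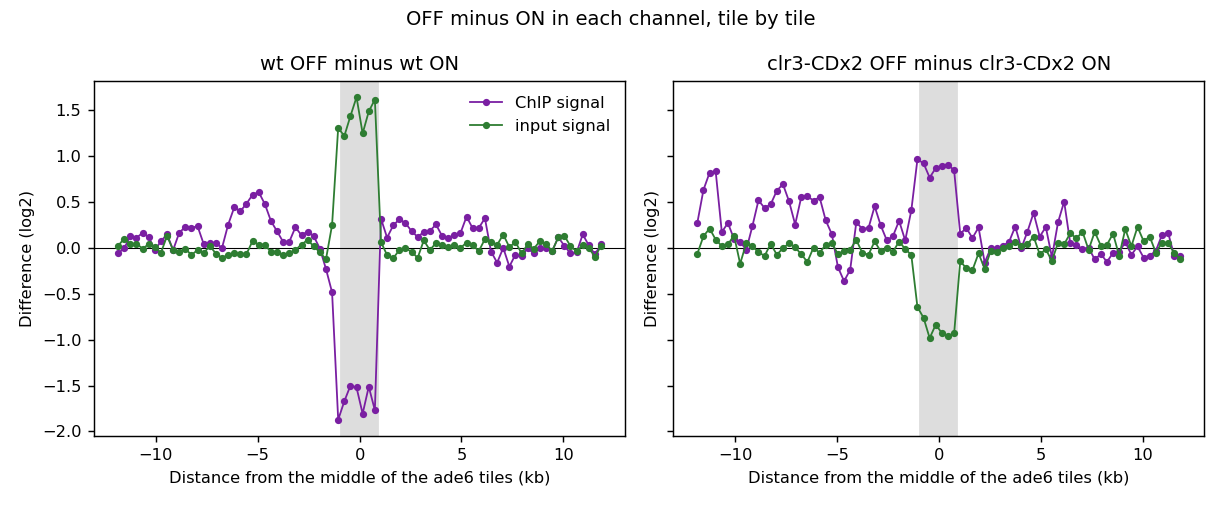
OFF minus ON (log2) for the ChIP and the input signal of each tile in wt (left) and clr3-CDx2 (right), against distance from the middle of the ade6 tiles in kb, with ade6 in grey and marked spots kept. In ade6 the 2 channels differ in opposite directions, by -1.60 and 1.46 in wt and by 0.88 and -0.93 in clr3-CDx2, and the input line is also off 0 at the adjoining left tile, at 1.31 for wt and -0.64 for clr3-CDx2, and within -0.24 to 0.25 at the other flanking tiles.

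The same pairing of channels was seen at ura4, the uracil synthesis marker that is selected against by 5-fluoroorotic acid, on the left arm of chromosome III. Over its 4 tiles ura4 read 3.64 for wt ON, -0.17 for wt OFF, 3.11 for clr3-CDx2 ON and 4.24 for clr3-CDx2 OFF (3 tiles), which is the order of ade6. It was as high as ade6 in wt ON. In wt OFF its 4 tiles ranged from -0.45 to 0.13, and the 3 placed wholly inside it had a median of 0.06. In wt, OFF minus ON, ura4 differed by -3.82, with -2.37 in the ChIP signal and 1.46 in the input signal. The input channel thus held 38.1% of the ura4 difference. Input signals in the reverse of the ratio order were found at 3 of its 4 tiles (2.26% of all). ChIP signals in that order were also found at 3 of 4 (4.19% of all), where ade6 had all of its tiles in both. Counted in array tiles, the enriched run around ura4 was far longer than that of ade6. Which copy of ade6 was read is not known, so its run need not be the length of a chromosomal stretch. An unbroken run at 2 or more that holds ura4 covered 30 tiles (9 kb) in wt ON, and 29 and 32 tiles on the ON and OFF arrays of clr3-CDx2. At 1 or more the run covered 100 tiles (30 kb) in wt ON and 40 tiles (12 kb) on each clr3-CDx2 array. These runs began at array position 114600 or 114900, so they do not hold all enriched tiles of the region. The gene mug135, at 111900 to 113100, read 4.26 in wt ON and lay outside them. Over the 40 tiles of the unbroken run at 1 or more shared by both ON arrays, the input difference in wt was 0.87 and the ChIP difference -2.88, an input share of 20.7%. The pairing was not limited to ade6 and ura4. The channels differed in opposite directions at 339 of 360 pericentromeric tiles for clr3-CDx2 OFF minus ON (49.1% of all tiles, input share 40.6%). The count was 313 for clr3-CDx2 ON minus wt ON (44.6% of all, input share 46.8%). It was 232 for the switch in wt (48.9% of all, input share 30.3%). Between genotypes at OFF it was 154 (51.1% of all), so no pairing beyond that of all tiles was seen there. The input share at OFF was 21.4% of a ratio difference of only -0.14. Ratios in the order of ade6 together with input signals in the reverse order were found at 107 tiles, or 0.258% of all. Of these, 7 were the ade6 tiles and the adjoining left tile, 21 lay between array positions 96000 and 150000 on the left arm of chromosome III, around ura4, and 79 lay elsewhere.

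The 5 genes whose levels were nearest to those of ade6 over the 4 arrays were ura4 and genes beside it, at array positions 102300 to 116100 on the left arm of chromosome III. By root-mean-square difference of log2 levels they were ura4 itself at 0.57, mug135 at 0.60, the DNA repair gene rhp7 at 0.70, SPCC330.03c at 0.75 and the DNA repair gene rhp16 at 0.88. The measure rests on 4 values a gene. For bub1 and vtc4, beside ade6, it was 2.13 and 3.34.

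The other genes of purine synthesis were read as a list. The list held ade1, ade2, ade3, ade4, ade5, ade7, ade8, ade9 and ade10, and all 9 were measured. On each of the 4 arrays 0 of 9 reached a level of 1, where 9.23%, 9.54%, 11.5% and 13.1% of all genes did, so that with 9 genes the count is near the share over all genes. Their medians were -0.31 for wt ON, -0.06 for wt OFF, -0.33 for clr3-CDx2 ON and -0.20 for clr3-CDx2 OFF, where all genes had 0.09, 0.07, 0.11 and 0.09. In wt, OFF minus ON, their differences ran from -0.0013 to 0.43 with a median of 0.10, and in clr3-CDx2 from -0.26 to 0.22 with a median of 0.01. The highest was ade9, a gene of folate metabolism, at 0.34, 0.40, 0.51 and 0.49. The adenylosuccinate synthetase gene ade2 was the lowest, at -0.98, -0.59, -1.18 and -1.08.

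Of 6 other marker genes, ura4 alone differed by 1 or more in any comparison. Of all 4876 genes, 0.697% were lower by 1 or more in wt OFF than in wt ON, 1.44% were higher in clr3-CDx2 OFF than ON, and 1.005% stood higher with clr3-CDx2 OFF set against wt OFF. The leucine marker leu1 read -1.33 for wt ON, -0.69 for wt OFF, -1.42 for clr3-CDx2 ON and -0.67 for clr3-CDx2 OFF. The lysine marker lys1 read 1.12, 1.67, 0.51 and 1.11. Neither followed the order of ade6. The histidine markers his3 and his7 and the arginine marker arg3 stayed between -0.53 and 0.59 on the 4 arrays.

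**Figure D4:**
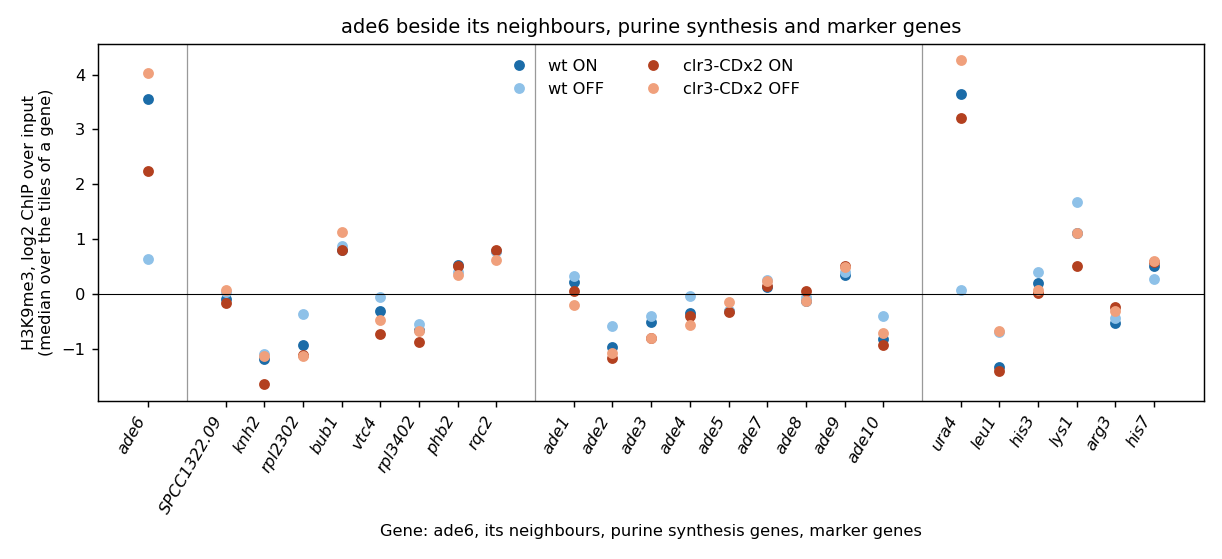
H3K9me3 level (log2 ChIP over input, median over the tiles placed in each gene) of ade6, 8 neighbours, 9 purine synthesis genes and 6 marker genes, with 1 point per array. ade6 and ura4 alone have points above 2, and their wt OFF points lie at 0.63 and 0.06.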

How the data were processed

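Per the labels, ChIP DNA (Cy5) and input DNA (Cy3) were amplified by random-primed PCR and hybridised together on 2-colour arrays. The scanner files deposited by the authors were made with Agilent Feature Extraction 12.0.3.1 and, per the file headers, hold the spot and background intensity of each channel, a processed intensity (background-subtracted, dye-normalised) and a log10 ratio with its error. The log2 ratios of the deposited series matrix equalled log2 of processed Cy5 over Cy3 within 0.01 on all 41551 tiles of each array; they are not centred, with medians of 0.173 to 0.296. The genome build is not given in the sources used here. 

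The value used was the log2 ratio of processed signals less the array's median over tiles, without loess or quantile steps. 1417 control spots were left out, as were spots marked non-uniform (190 to 578 per array). Signals by channel, orders of the arrays, ranks within ade6, steps between tiles, runs and the pericentromeric medians used for scaling keep them. A single channel was compared only between arrays. Genes took the median of at least 2 tiles lying wholly inside them after a shift of each chromosome arm, found from the correlation of input signal with GC content (-820 bp and 0.219 on the right arm of chromosome III, at most 0.053 beyond 1 kb). Pericentromeres were the longest interval of each chromosome without a protein-coding gene. Named genes were ade6, its neighbours, fixed lists of purine synthesis and marker genes, clr3, clr4 and the 5 genes nearest in level. Members and lists were chosen with earlier results of these data known. With 1 array per group no test was made, and depth is given as signal over background. Alternatives, one at a time, were marked spots kept, other centring, normexp (offset 50, on median signals, since the files hold no mean signals), ChIP signal alone, pericentromeric scaling, mean for median and other tile limits. Pericentromeric scaling multiplied all log2 ratios of an array by a single factor. The difference code was tested on simulated data. Python 3.11.15 and limma 3.58.1 in R 4.3.3 were used.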

Additional observations from a re-analysis of the deposited data

Results flagged for a closer look

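At ade6 the switch went with differences of opposite sign in the 2 genotypes. OFF minus ON was negative at each of the 6 tiles in wt and positive at each of the 5 tiles used in clr3-CDx2, and the difference between these differences was 4.86 (log2), from 4.57 to 5.16 over 5 tiles. A value of 1 or more was found at 1.83% of all tiles. Each genotype had 1 array before and 1 after the switch, so the difference was not tested. On the ChIP signal alone it was 2.60.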

How the results depend on the processing

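The 4 levels and 5 differences at ade6 kept their sign under each of the 12 alternatives tried, of which the 7-tile set and centring on the flank without the adjoining left tile were chosen after seeing the data. The order of the 4 levels was not kept in all: clr3-CDx2 OFF was below wt ON with pericentromeric scaling (3.52 and 3.88). Levels ran from 2.48 to 3.98 in wt ON, from 0.51 to 0.84 in wt OFF, from 1.86 to 3.25 in clr3-CDx2 ON and from 2.61 to 4.23 in clr3-CDx2 OFF. A value was taken to have moved when it did so by 1 SD of the flanking tiles or more. These SDs included the adjoining left tile. They were 0.44 for wt OFF minus wt ON, 0.52 for clr3-CDx2 OFF minus wt OFF and 0.63 for the difference of differences. Without that tile they were 0.20, 0.30 and 0.30. By these smaller SDs the normexp difference of differences (4.27, against 4.86) also moved. So did wt OFF minus wt ON (-3.34, against -3.02) and clr3-CDx2 OFF minus wt OFF (3.13, against 3.59) with pericentromeric scaling. On the ChIP signal alone, wt ON read 2.48 and clr3-CDx2 OFF 2.61, and the differences were -1.60 for wt OFF minus wt ON, 0.90 for clr3-CDx2 OFF minus ON, -0.66 for clr3-CDx2 ON minus wt ON, 1.94 for clr3-CDx2 OFF minus wt OFF and 2.60 for the difference of differences. This alternative leaves out the input channel. With normexp, clr3-CDx2 OFF minus ON was 1.24 and clr3-CDx2 ON minus wt ON -1.01. With pericentromeric scaling, on medians with marked spots kept, they were 0.39 and -0.63, and the difference of differences was 3.73. The cause of these was not tested. Shares of all tiles have no flanking SD, so the rule for a moved value does not cover them and values only are given. With normexp the share of all tiles higher in wt OFF than in wt ON was 1.93% and lower 1.14%, against 1.12% and 0.753% otherwise. The share with clr3-CDx2 OFF below wt OFF was 1.57%, against 0.725%. The 12 input values, 12 ChIP values and 16 flank values under alternatives did not move by that much. No paired analysis was possible because each group has 1 array. With so few arrays, the precision of these differences is unknown.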
